A study of Danio rerio with 15 samples.

Results

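Nuclear receptors are transcription factors that carry a DNA-binding domain and, in most members, a pocket for a small lipophilic ligand such as retinoic acid, a steroid, a thyroid hormone, vitamin D, a fatty acid or a bile acid. Ligand binding exchanges corepressors for coactivators at the genes the receptor occupies, and many members bind DNA as a heterodimer with a retinoid X receptor. Retinoic acid signalling acts in the growth and regeneration of the zebrafish fin, thyroid hormone acts on its pigment cells, and the Rev-erb and Ror receptors are part of the circadian clock of most tissues.

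The transcripts came from the caudal fin of zebrafish of the AB wild-type strain, cut into a distal, a middle and a proximal region. Each position had 5 biological replicates, and each replicate pooled the same region of 2 male and 2 female fish. Total RNA was depleted of ribosomal RNA and sequenced as 50-base read pairs. No allele or treatment separated the groups, the age of the fish is not given in the sources used here, and neither is whether the 3 positions of a replicate came from the same fish.

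The receptors were taken by gene symbol: the systematic nr names of the family, and the trivial names of the retinoic acid, retinoid X, thyroid hormone, peroxisome proliferator-activated, oestrogen, oestrogen-related, Ror, vitamin D, androgen and progesterone receptors. The symbols matched 65 of the 23926 gene IDs in the authors' 3 pairwise tables. Of these, 63 were receptor genes and 2, nr2c2ap and thrap3b, encode proteins that are only named after a receptor, and neither of the 2 was called in any comparison in the authors' deposited tables. The rule used names and no values, but it was chosen with earlier results of these data known. All 63 receptors are accounted for here.

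The authors deposited only the mean of the 5 replicates of each position. The read count behind each library was recovered from the digits of those means, with a single solution for all 63 receptors, so that values per library can be shown. A level is given throughout as a normalized count, the reads of a gene in a library divided by that library's size factor. It is not divided by transcript length, so it compares positions and not genes. Recovered counts summed to 9392214 to 12755994 reads per library. Genes without a single solution are not in these sums, so full library depths were higher to an unknown extent. Reads of receptor genes made up 0.343% to 0.397% of these sums in distal, 0.314% to 0.383% in middle and 0.296% to 0.381% in proximal libraries. Libraries are numbered within a position by their size factor, and a number does not link libraries of different positions.

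Markers of several cell types differed along the fin, counted here from the authors' deposited table of distal and proximal regions. Melanophore markers were called higher distally for 9 of 9 genes, with a summed level of 4635 to 6494 in distal, 2035 to 3243 in middle and 1542 to 2101 in proximal libraries. Xanthophore markers were higher for 9 of 10, with sums of 6939 to 8858, 4138 to 4708 and 2765 to 3378 in distal, middle and proximal libraries. Fin ray fibroblast markers were higher in 7 and lower in 2 of 11 rows, with sums of 54513 to 66997, 25425 to 29705 and 18958 to 22748 in distal, middle and proximal libraries, and one of them, the actinotrichia gene and2, was at 0 in every proximal library. Osteoblast markers had 6 higher and 1 lower of 10, epidermis 6 and 2 of 9, endothelium 3 and 4 of 9, iridophore 2 and 3 of 8, macrophage and neutrophil 2 and 6 of 9, nerve sheath 2 and 6 of 9, and skeletal muscle 0 and 2 of 6. Summed levels did not follow these counts in every list. Macrophage and neutrophil sums were 18831 to 22273 in distal and 14403 to 18275 in proximal libraries. Iridophore sums were 1263 to 1512 and 937 to 1106, and nerve sheath sums 6958 to 9374 and 7653 to 8630, in the same order. The part of these cell types in any receptor's difference was not tested, and in bulk tissue fewer cells of a type and less RNA per cell cannot be told apart.

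Receptors were called at an adjusted p under 0.05 in the authors' DESeq test. Between distal and proximal regions the authors' deposited table called 13 of 63 receptors higher and 10 lower in distal fin, that is 20.6% and 15.9%, beside 17.9% and 18.1% of all 23404 genes tested. Between middle and proximal regions 0 of 63 were called higher and 3 lower in middle fin, beside 3.51% and 3.80% of 23556 genes in the authors' deposited table, where 5 and 7 receptors had an unadjusted DESeq p under 0.05. Between distal and middle regions 11 of 62 were called higher and 6 lower in distal fin, beside 13.3% and 12.9% of 23232 genes in that pair's deposited table. These shares were near those of all genes, and nothing is read from them. The results lie in which receptors differed and in which direction. The median log2 fold change of receptors between distal and proximal fin was 0.00, against -0.04 over all genes. Each position enters 2 of the 3 comparisons, so the comparisons share libraries and are not independent.

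In all, 26 receptors were called in at least 1 comparison and 37 in none. Of the 13 that were higher in distal than proximal fin, 11 had position means in the order distal, middle, proximal, and the libraries of the end positions did not overlap for 12. All 10 that were lower had means in the reverse order, without overlap for 6. Over all 63 receptors the libraries did not overlap for 14 with distal fin higher and 6 with distal fin lower, 22.2% and 9.52%, beside 15.7% and 15.2% of all genes. Called differences reached 2-fold for 6 of the 13 and 4 of the 10. The call itself sets the order of the end means, so only the place of the middle mean was free. No share of all genes stands beside the counts of receptors called in at least 1 comparison or in none. The same holds for ordered means, non-overlap and 2-fold size among called receptors. Nothing is read from those counts. As a second test, limma was run on the recovered counts. It kept the 56 receptors that reached 10 reads in 5 or more libraries. It called 14 higher and 11 lower between distal and proximal fin, 25.0% and 19.6%, beside 25.8% and 25.7% of the 18818 genes it kept. These calls included 20 of the authors' 23. The other 3, esrrga, pgr and nr1h4, fell under limma's filter on low counts. Between middle and proximal fin it called 3 higher and 5 lower, 5.36% and 8.93%, beside 6.87% and 6.92%. Between distal and middle fin it called 13 higher and 5 lower, 23.2% and 8.93%, beside 20.4% and 18.3%.

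**Figure D1:**
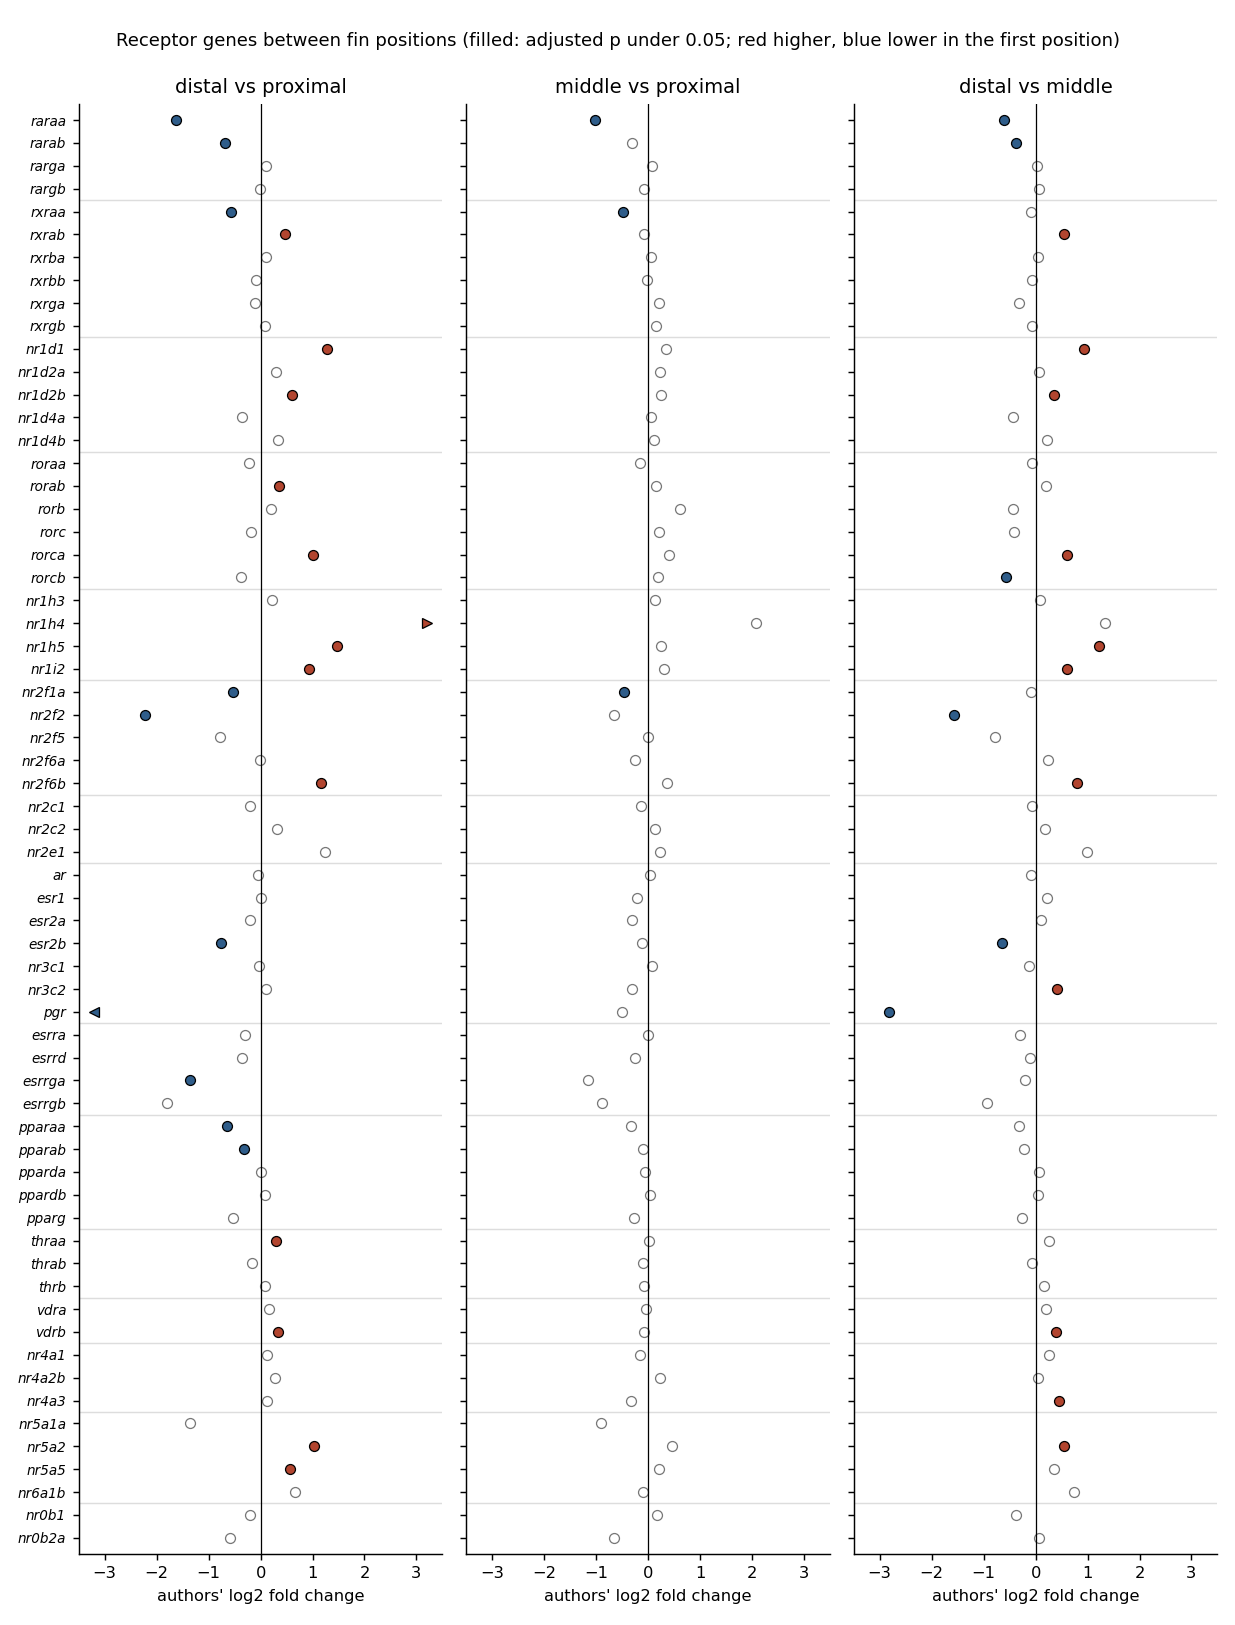
The authors' log2 fold change (horizontal axis) of each of the 63 receptors (rows, grouped by subfamily between grey lines) in the comparisons of distal with proximal, middle with proximal and distal with middle fin. Filled points passed the authors' adjusted p under 0.05, red where higher and blue where lower in the first-named position, and open points did not. Triangles near the edge are drawn short of their values, log2 -3.32 for pgr and 3.43 for nr1h4 between distal and proximal fin. Called receptors number 23, 3 and 17 in the panels from left to right.

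Of the retinoic acid receptors, only the alpha subtype passed the test. Both genes of the alpha subtype, raraa and rarab, were lower in distal fin, and both genes of the gamma subtype, rarga and rargb, passed the test in no comparison. These receptors bind all-trans retinoic acid and act on DNA with a retinoid X receptor.

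raraa (ENSDARG00000056783) was at 86.9, 109.9, 71.4, 71.8 and 98.9 in the 5 distal libraries, 109.6, 138, 109, 145 and 161 in the middle libraries and 239.6, 287, 283, 308 and 232 in the proximal libraries. Every distal and every middle library was below every proximal one, while distal and middle libraries overlapped slightly. Means were 87.8 ± 16.9 in distal, 132 ± 22.8 in middle and 269.8 ± 32.8 in proximal fin (SD, n = 5 each). In the authors' deposited tables raraa was 3.07-fold lower in distal than proximal fin (log2 -1.62, adjusted p = 1.46e-25), 2.04-fold lower in middle than proximal (log2 -1.03, adjusted p = 1.43e-11) and 1.52-fold lower in distal than middle fin (log2 -0.60, adjusted p = 0.00268). It was the one receptor called in all 3 comparisons. limma gave a log2 difference of -1.63 ± 0.14 (SE) between distal and proximal fin.

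rarab (ENSDARG00000034893) was at 341, 369, 334, 393 and 489.9 in distal, 456, 486, 498, 507 and 549 in middle and 644, 667, 642, 579.9 and 552 in proximal libraries. Distal libraries were all below proximal ones and overlapped the middle libraries through a single high distal library. The authors' deposited table gave a 1.6-fold lower level in distal than proximal fin (log2 -0.68, adjusted p = 8.78e-08), and the level was 1.3-fold lower in distal than middle fin (adjusted p = 0.00545). Between middle and proximal fin the libraries did not overlap, with means of 499 ± 34 in middle and 617 ± 48.4 in proximal fin (SD, n = 5 each), but the authors' deposited table did not call the difference (log2 -0.30, adjusted p = 0.0861). limma's adjusted p for that step was 0.0279, a call lost without any of 6 single libraries (adjusted p up to 0.0756).

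rarga averaged 3218 ± 134 in distal, 3144 ± 105 in middle and 2997 ± 61.3 in proximal fin (SD, n = 5 each), and the libraries of all positions overlapped. limma's 95% interval for its log2 difference between distal and proximal fin was -0.0029 to 0.21. rargb averaged 693 ± 80.2, 662 ± 64.9 and 698 ± 71.4 in distal, middle and proximal fin, with an interval of -0.21 to 0.18. Neither gamma gene was called in any comparison, by the authors or by limma, and both intervals end short of the fitted differences of the alpha genes.

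**Figure D2:**
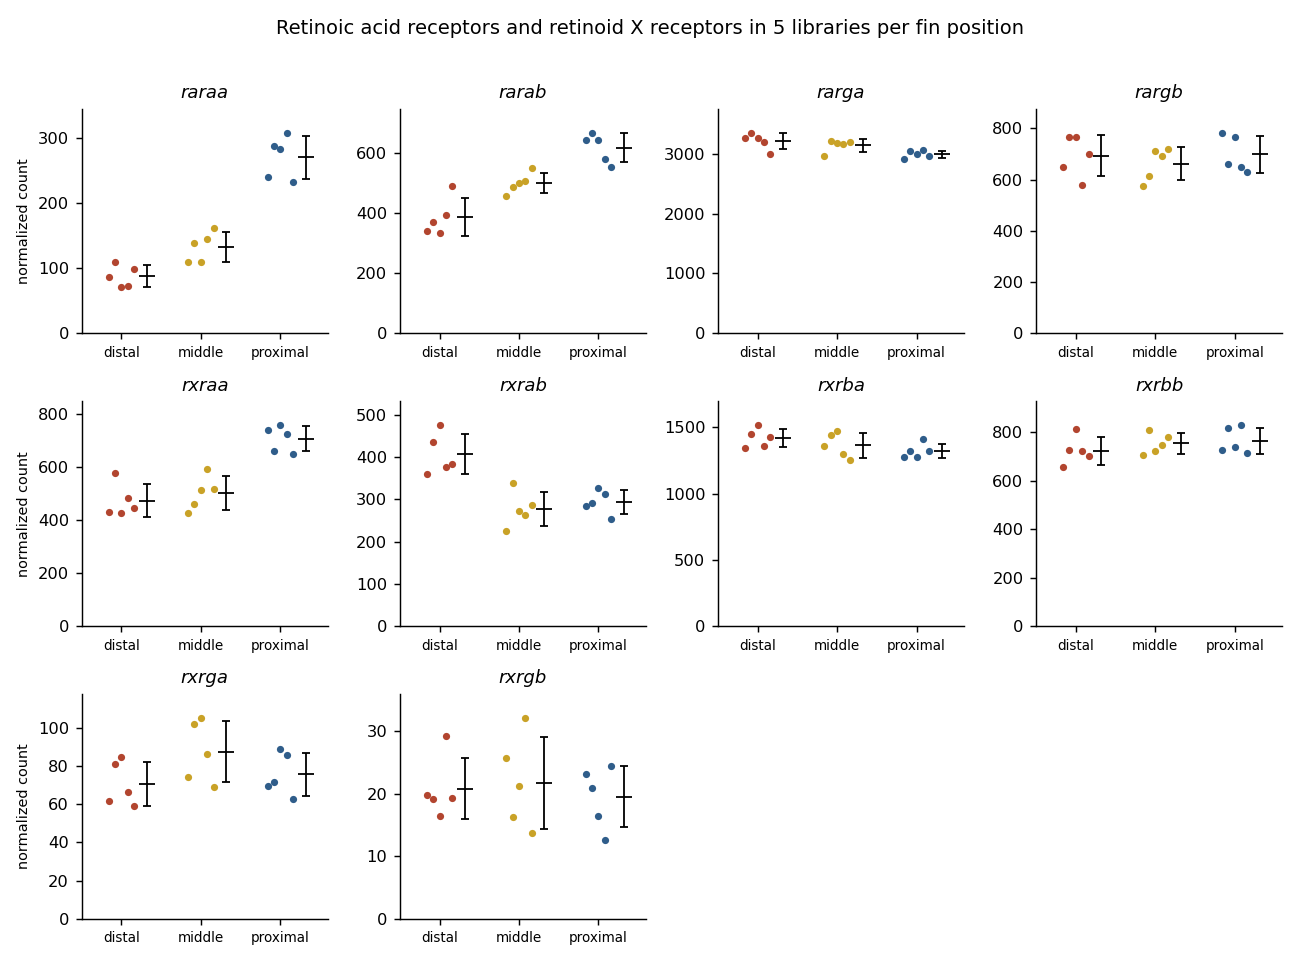
Normalized count (vertical axis, from 0, a separate scale per gene) of the 4 retinoic acid receptors and 6 retinoid X receptors in distal, middle and proximal libraries. Each point is 1 of 5 libraries, and the bar beside them is the mean with its SD. All 5 distal points lie below all proximal points for raraa, rarab and rxraa and above them for rxrab.

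Retinoid X receptors are the shared heterodimer partners of the retinoic acid, thyroid hormone, vitamin D and fatty acid receptors. Of the 6 genes, rxraa was lower and rxrab higher in distal than proximal fin, so both duplicates of the alpha subtype differed, in opposite directions, and the beta and gamma genes passed the test in no comparison.

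rxraa (ENSDARG00000057737) was at 430.0, 578, 427, 485 and 445 in distal, 425, 459.7, 514, 592 and 516 in middle and 740.1, 661, 756, 725 and 650.0 in proximal libraries. The proximal libraries stood above all others, and the distal and middle libraries overlapped. In the authors' deposited tables it was 1.49-fold lower in distal than proximal fin (log2 -0.58, adjusted p = 6.7e-06) and 1.41-fold lower in middle than proximal fin (log2 -0.49, adjusted p = 0.000515). Distal and middle fin had means of 473 ± 63.1 and 502 ± 63.5 (SD, n = 5 each), a difference that was not called.

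rxrab (ENSDARG00000035127) was at 361, 435, 475, 377 and 385 in distal, 226, 339, 272, 264 and 286 in middle and 284, 290.5, 328, 312 and 254 in proximal libraries. Here the distal libraries stood above all others, while middle and proximal libraries overlapped. The authors' deposited tables gave a 1.38-fold higher level in distal than proximal fin (log2 0.47, adjusted p = 0.000999) and a 1.46-fold higher level in distal than middle fin (log2 0.54, adjusted p = 9.3e-05).

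Among the other retinoid X receptors, rxrba averaged 1418 ± 69.1 in distal, 1364 ± 93.9 in middle and 1323 ± 54.6 in proximal fin, and rxrbb 724 ± 56.5, 754 ± 42.6 and 766 ± 53 in the same order (SD, n = 5 each). rxrga had 70.5 ± 11.6 in distal, 87.4 ± 16 in middle and 75.6 ± 11.2 in proximal fin, and rxrgb 20.8 ± 4.86, 21.8 ± 7.36 and 19.5 ± 4.92. Libraries of the positions overlapped for all 4 genes.

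Genes that make, move and degrade retinoic acid differed in both directions. Of 22 tested between distal and proximal fin, 8 were called higher and 6 lower in distal fin in the authors' deposited table, 63.6% beside 36.0% of all genes, with a median log2 of -0.15. The 36.0% also counts genes of few reads, which limma's filter left out. With limma 8 were higher and 7 lower, beside 25.8% and 25.7% of the 18818 genes it kept. The number of list genes that limma kept is not given for this or the later lists, so its counts give no share. aldh1a2, which makes retinoic acid from retinaldehyde, also stands in the fin ray fibroblast marker list. It averaged 32.9 ± 6.11 in distal, 117 ± 8.64 in middle and 255 ± 66.7 in proximal fin (SD, n = 5 each), 7.75-fold lower at the distal end in the authors' deposited table (adjusted p = 1.79e-17). aldh1a3, the other gene of a retinoic acid-making enzyme in the list, lay in the opposite direction, with 698 ± 55.7, 319 ± 27.7 and 309.8 ± 26.1 in distal, middle and proximal fin, 2.25-fold higher distally (authors' deposited table, adjusted p = 1.28e-20). bco1, which cleaves carotene to retinaldehyde and also stands in the xanthophore marker list, averaged 1935 ± 224 in distal, 518 ± 74.1 in middle and 286 ± 54.4 in proximal fin, 6.77-fold higher distally (authors' deposited table, adjusted p = 6.55e-78). stra6, a receptor for the retinol carrier of plasma, averaged 107 ± 17.1, 39.1 ± 8.38 and 24.7 ± 14.6 in distal, middle and proximal fin, 4.32-fold higher distally (authors' deposited table, adjusted p = 1.72e-17). The degradation genes cyp26a1, cyp26b1 and cyp26c1 were 3.04-fold, 4.02-fold and 1.78-fold higher distally than proximally (authors' deposited table, adjusted p = 1.17e-31, 5.03e-69 and 0.0338). In contrast, rbp4 and crabp2b were 2.16-fold and 2.79-fold lower distally (same table, adjusted p = 5.01e-24 and 2.03e-17). bco1l and bco2a were 2.01-fold and 1.77-fold lower (same table, adjusted p = 0.000916 and 5.26e-11). rbp2a, at 0 in distal fin, was called lower too, and dhrs3b and crabp2a higher. Between middle and proximal fin 5 of 23 genes of this list were called higher and 5 lower in middle fin, beside 7.31% of all genes. Between distal and middle fin 9 of 20 were called higher and 6 lower in distal fin, beside 26.2%.

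Of 28 coregulators, the proteins that receptors recruit, 2 were called higher and 7 lower in distal than proximal fin in the authors' deposited table, 32.1% beside the 36.0% of all genes. With limma 6 were higher and 9 lower, beside 25.8% and 25.7% of the genes it kept. ncoa7a had 5.04 ± 2.63 in distal, 31.4 ± 14.8 in middle and 42.8 ± 12.6 in proximal fin (authors' deposited table, adjusted p = 1.15e-12 between the ends). nsd1b, a histone methyltransferase gene, averaged 127 ± 13.4, 174 ± 6.04 and 216 ± 24.7 in distal, middle and proximal fin (adjusted p = 1.45e-06 in the same table), and tacc1 averaged 2439 ± 146, 1558 ± 105 and 1373 ± 57.9 (adjusted p = 5.93e-13). None of the 28 was called between middle and proximal fin in the authors' deposited table, and limma called 0 higher and 3 lower there. At an unadjusted DESeq p under 0.05 that table held 0 higher and 2 lower.

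Zebrafish keep many receptors as duplicates, and 16 pairs among the 63 could be compared for the share of the pair's reads that each gene held, a measure free of the library scale. A share was compared between positions with an exact two-sided permutation test over libraries, 48 tests in all, for which 5 against 5 libraries allow no p below 0.00794. Between distal and proximal fin 5 pairs passed, between middle and proximal fin 3, and between distal and middle fin 2. The 10 shares that passed were all at that smallest p, which Benjamini-Hochberg adjustment over the 48 tests set at 0.0381, with no overlap between the libraries of its 2 positions.

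raraa held 18.6% ± 2.99 of the reads of raraa and rarab in distal, 20.9% ± 2.09 in middle and 30.4% ± 2.73 in proximal fin (SD, n = 5 each), and passed between distal and proximal and between middle and proximal fin (exact permutation test, adjusted p = 0.0381 each). rxraa held 53.7% ± 3.84 of its pair in distal, 64.3% ± 4.23 in middle and 70.7% ± 1.31 in proximal fin and passed in all 3 comparisons (exact permutation test, adjusted p = 0.0381 each). rorca held 45% ± 3.43 of the reads of rorca and rorcb in distal, against 26.4% ± 2.07 in middle and 23.7% ± 2.3 in proximal fin, passing for distal against both other positions. nr2f6a held 72.4% ± 3.34, 79.5% ± 2.9 and 85.4% ± 2.32 in distal, middle and proximal fin and passed against proximal fin for both. The smallest shift that passed was that of rxrba, with 66.2% ± 0.961 of its pair in distal and 63.4% ± 1.11 in proximal fin. The share within the gamma retinoic acid receptors did not pass, with 82.3% ± 1.66 of their reads from rarga in distal, 82.6% ± 1.15 in middle and 81.1% ± 1.75 in proximal fin (exact permutation test, adjusted p = 0.504 between the ends).

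**Figure D3:**
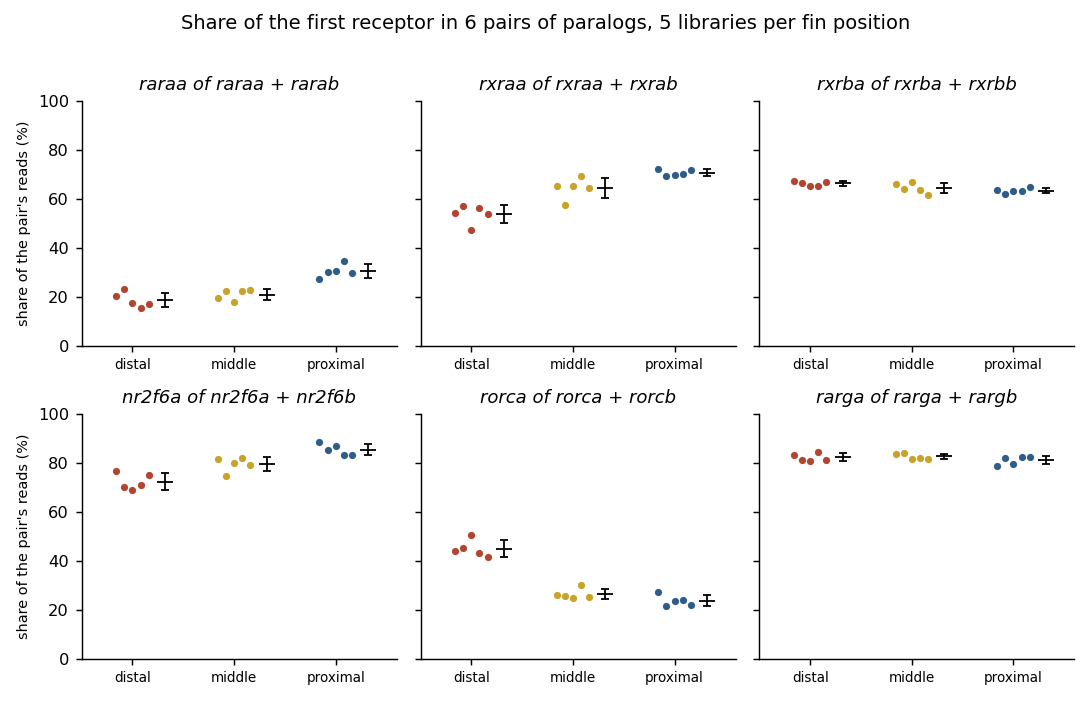
Share of a pair's reads that came from the first-named receptor (vertical axis, percent, 0 to 100) in distal, middle and proximal libraries, for the 5 pairs whose share differed between distal and proximal fin and, last, for the gamma retinoic acid receptors. Points are the 5 libraries of a position and bars the mean with its SD. The share of rxraa averages 53.7% in distal and 70.7% in proximal fin, and that of rorca 45.0% in distal and 23.7% in proximal fin.

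The Rev-erb receptors repress and the Ror receptors activate shared target genes of the circadian clock, among them the gene of the clock activator Bmal1. Of 5 Rev-erb genes, nr1d1 and nr1d2b were higher in distal than proximal fin, and of 6 Ror genes rorab and rorca were, so that repressor and activator genes were both higher distally. rorcb, the duplicate of rorca, was lower in distal than middle fin.

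nr1d1 (ENSDARG00000033160, Rev-erb alpha) was at 1040.5, 775, 783, 1080.5 and 997 in distal, 561, 365, 572, 535 and 393 in middle and 394, 411, 347, 254 and 510.2 in proximal libraries. Every distal library was above every library of the other positions, which overlapped each other. In the authors' deposited tables it was 2.44-fold higher in distal than proximal fin (log2 1.29, adjusted p = 2.41e-12) and 1.92-fold higher in distal than middle fin (log2 0.94, adjusted p = 1.79e-07). nr1d2b averaged 2938 ± 145 in distal, 2288 ± 241 in middle and 1929 ± 221 in proximal fin (SD, n = 5 each), 1.52-fold higher distally than proximally (authors' deposited table, adjusted p = 1.7e-07). Its level was also 1.28-fold higher in distal than middle fin (authors' deposited table, adjusted p = 0.00449). Its duplicate nr1d2a had 14822 ± 2263, 14140.2 ± 2335 and 12116 ± 2372 in distal, middle and proximal fin, with overlapping libraries, and was called in no comparison.

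rorca (ENSDARG00000057231) was at 562, 427, 495, 505 and 483 in distal, 372, 258, 311, 372 and 300.1 in middle and 306, 245, 258, 169 and 243 in proximal libraries. The distal libraries lay above all others. The authors' deposited tables gave 2.03-fold higher levels in distal than proximal fin (log2 1.02, adjusted p = 1.24e-14) and 1.52-fold higher levels in distal than middle fin (adjusted p = 5.16e-06). rorcb (ENSDARG00000017780) was at 714, 512, 483, 664 and 676 in distal, 1046, 755, 936, 868 and 887 in middle and 813, 891, 839.6, 531 and 869.9 in proximal libraries. Distal libraries were all below the middle ones and overlapped the proximal ones only through 1 low proximal library. The distal level was 1.48-fold lower than the middle one (authors' deposited table, log2 -0.57, adjusted p = 0.000102) and was not called against proximal fin (log2 -0.37, adjusted p = 0.0723). rorab averaged 1719 ± 190.1 in distal, 1489.6 ± 112 in middle and 1344 ± 70.9 in proximal fin (SD, n = 5 each), 1.28-fold higher distally than proximally in the authors' deposited table (adjusted p = 0.00496).

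**Figure D4:**
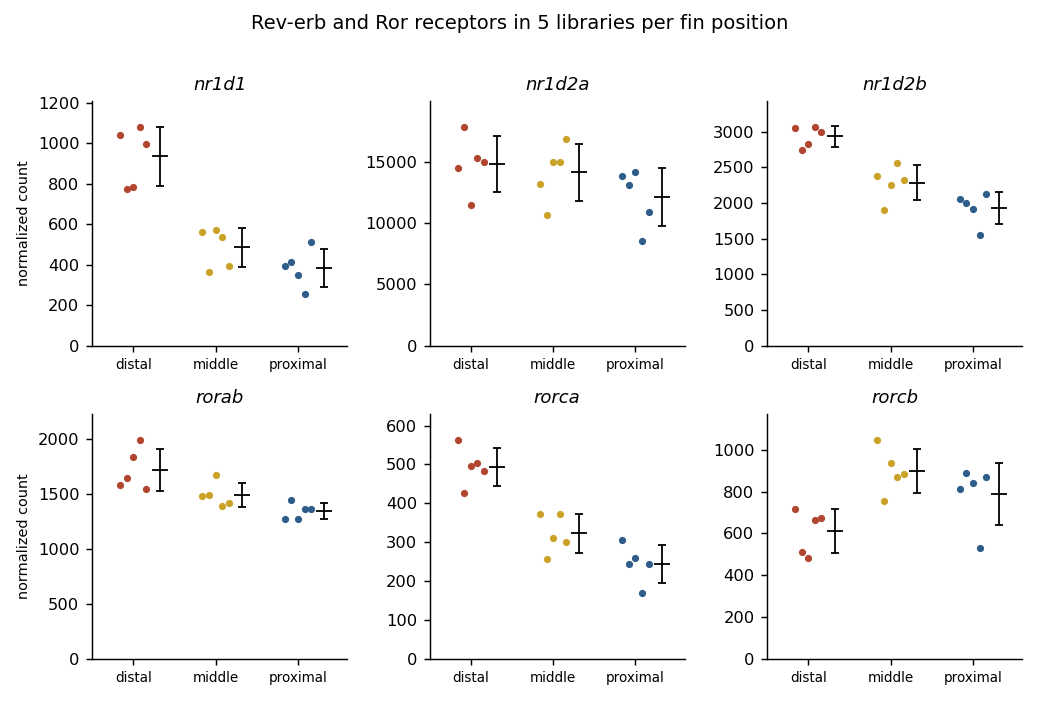
Normalized count (vertical axis, from 0, a separate scale per gene) of 3 Rev-erb and 3 Ror receptor genes in distal, middle and proximal libraries. Points are the 5 libraries of a position and bars the mean with its SD. Distal points lie above all others for nr1d1, nr1d2b and rorca, while those for nr1d2a overlap the other positions and those for rorcb lie below the middle ones.

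Of 30 clock genes that work with these receptors, 15 were called higher and 4 lower in distal than proximal fin in the authors' deposited table, 63.3% beside the 36.0% of all genes, with a median log2 of 0.31. With limma 15 were higher and 5 lower, beside 25.8% and 25.7% of the genes it kept. per1a, a clock repressor gene, averaged 2218 ± 463 in distal, 1106 ± 143 in middle and 846 ± 85.6 in proximal fin (SD, n = 5 each), 2.62-fold higher distally than proximally (authors' deposited table, adjusted p = 1.67e-10). nfil3, whose protein competes with the Dbp, Tef and Hlf activators, averaged 201 ± 59.8, 394 ± 85 and 460.2 ± 68.4 in distal, middle and proximal fin, 2.28-fold lower distally (adjusted p = 1.44e-09 in the same table). The cryptochrome gene cry1bb averaged 390.0 ± 55.4, 554 ± 81 and 742 ± 111, 1.9-fold lower distally (authors' deposited table, adjusted p = 1.2e-09). The time of day at which each region was taken is not given in the sources used here, and its part in these differences was not tested.

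Receptors for bile acids, sterols and foreign compounds were higher in distal fin or were not called. nr1i2 (ENSDARG00000029766), the pregnane X receptor that induces drug-metabolising enzymes, was at 1093, 1483, 1687, 1272 and 1464 in distal, 717, 1051, 979.8, 909 and 917 in middle and 823, 783, 669, 766 and 647 in proximal libraries. All distal libraries exceeded all others. The authors' deposited tables gave a 1.9-fold higher level in distal than proximal fin (log2 0.92, adjusted p = 3.92e-09) and a 1.52-fold higher level in distal than middle fin (adjusted p = 0.000261).

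nr1h5, a farnesoid X receptor gene of low level here, was at 28.4, 19.2, 24.2, 26.9 and 16.9 in distal, 6.85, 4.81, 10.6, 10.7 and 16.6 in middle and 14.9, 4.76, 8.71, 8.74 and 4.89 in proximal libraries. Its distal libraries stood just above the highest of the others, and the fold was 2.75 between distal and proximal fin (authors' deposited table, adjusted p = 0.000337). Between distal and middle fin the fold was 2.32 (authors' deposited table, adjusted p = 0.00217). nr1h4, the bile acid receptor gene, rested on 29 reads in the distal, 13 in the middle and 3 in the proximal libraries together, and was called between distal and proximal fin in the authors' deposited table (adjusted p = 0.00129). nr1h3, the liver X receptor gene, averaged 803 ± 64.9 in distal, 751 ± 57.4 in middle and 687 ± 19.5 in proximal fin (SD, n = 5 each). Its distal libraries lay above the proximal ones, and limma called it (adjusted p = 0.0111) while the authors' deposited table did not (adjusted p = 0.118).

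Among the COUP-TF receptors, orphan members that mostly repress transcription, nr2f2 and nr2f1a were lower and nr2f6b higher in distal fin. nr2f2 (ENSDARG00000040926, COUP-TFII, which in mice sets venous identity of endothelium) was at 30.2, 25.6, 17.6, 20.2 and 31.4 in distal, 121, 54.8, 50.0, 80.6 and 63.3 in middle and 121, 135, 92.9, 93.3 and 139 in proximal libraries. The distal libraries stood below all others, and the middle libraries overlapped the proximal ones through 1 high library. The authors' deposited tables gave a 4.65-fold lower level in distal than proximal fin (log2 -2.22, adjusted p = 2.23e-20), the largest called fold among receptors with a mean of at least 20, and 2.97-fold lower in distal than middle fin (adjusted p = 0.000586). Between middle and proximal fin it was not called by the authors (adjusted p = 0.117) and was called by limma (adjusted p = 0.0245). That limma call was lost without any of 5 single libraries (adjusted p up to 0.0781). Endothelial markers moved in both directions over the same regions, and their summed level was 2377 to 2624 in distal, 1886 to 2058 in middle and 1927 to 2544 in proximal libraries.

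nr2f1a averaged 107 ± 22 in distal, 113 ± 18.7 in middle and 155 ± 17 in proximal fin (SD, n = 5 each), lower in distal than proximal fin without overlap (authors' deposited table, log2 -0.54, adjusted p = 0.00288). Its call between middle and proximal fin (authors' deposited table, log2 -0.46, adjusted p = 0.0405) was lost when any of 7 single libraries was left out, with limma adjusted p-values of 0.0539 to 0.0818. nr2f6b was at 81.3, 123, 145, 122 and 92.9 in distal, 54.8, 95.2, 59.7, 49.5 and 64.3 in middle and 31.6, 53.3, 42.6, 72.9 and 52.8 in proximal libraries. Distal libraries exceeded the proximal ones and overlapped the middle ones, and the level was 2.23-fold higher in distal than proximal fin (authors' deposited table, log2 1.16, adjusted p = 1.22e-05). The level was also called 1.73-fold higher in distal than middle fin (authors' deposited table, adjusted p = 0.00375). The duplicate nr2f6a averaged 291 ± 20.4 in distal, 246 ± 21 in middle and 292 ± 45.4 in proximal fin and was not called.

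**Figure D5:**
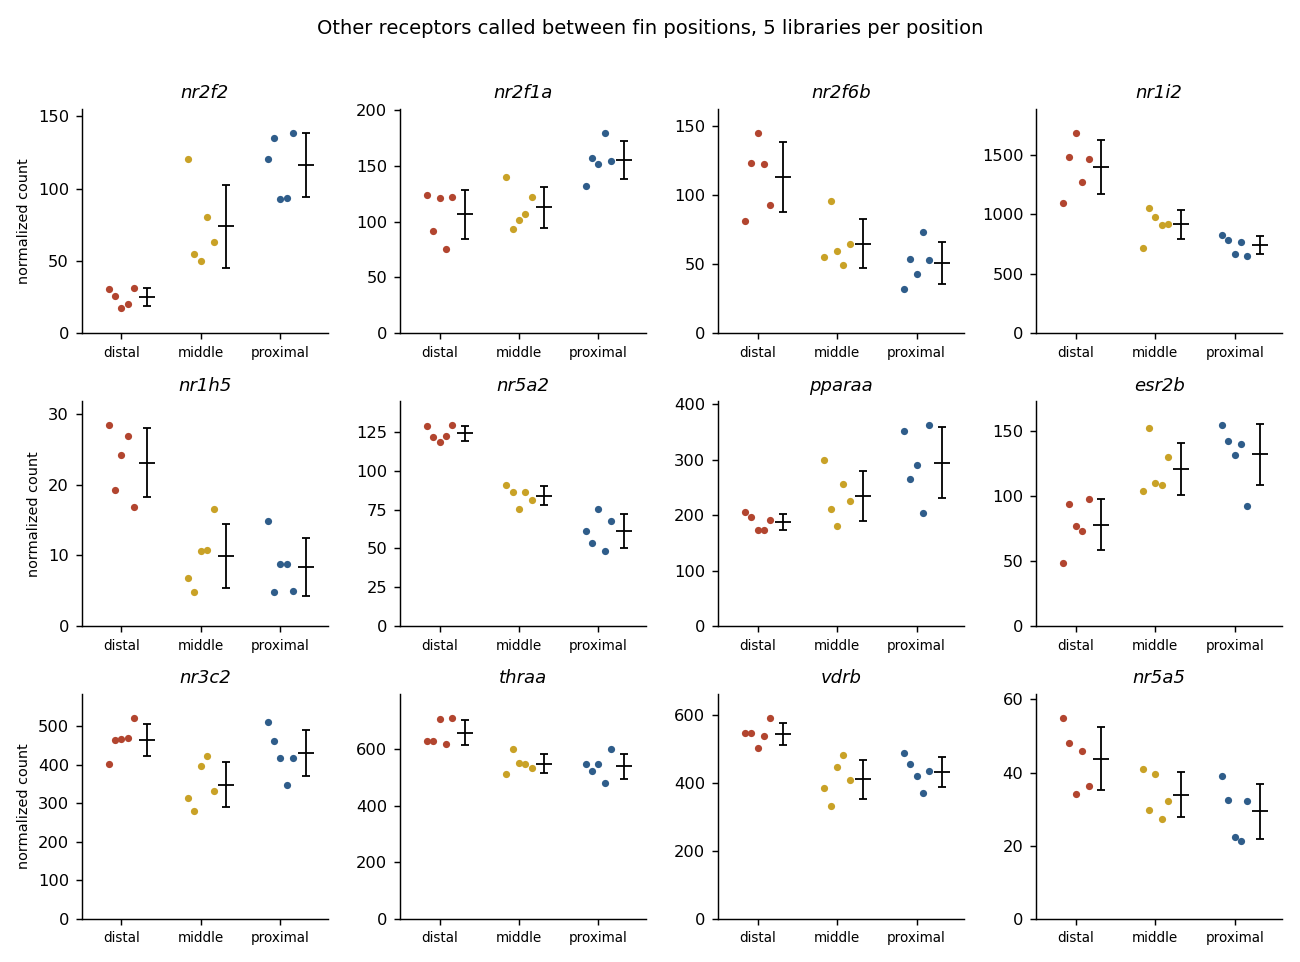
Normalized count (vertical axis, from 0, a separate scale per gene) of 12 further receptors that the authors called in at least 1 comparison, in distal, middle and proximal libraries. Points are the 5 libraries of a position and bars the mean with its SD. Distal points lie below all others for nr2f2 and above all others for nr1i2, nr1h5, nr5a2, thraa and vdrb, while nr3c2 is lowest on average in middle fin.

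Of the 7 steroid receptors, ar, nr3c1, esr1 and esr2a passed the test in no comparison, while the oestrogen receptor esr2b and the progesterone receptor pgr were lower in distal fin. esr2b was at 48.2, 93.9, 76.9, 72.9 and 97.7 in distal, 104, 152, 109.7, 109 and 129.6 in middle and 154, 142, 132, 139.9 and 91.9 in proximal libraries. Distal libraries lay below the middle ones, and 1 proximal library reached into the distal range. The distal level was 1.69-fold lower than the proximal (authors' deposited table, log2 -0.76, adjusted p = 0.000289) and 1.56-fold lower than the middle one (adjusted p = 0.00256). pgr rested on 4 reads in distal, 32 in middle and 46 in proximal libraries together, and the authors' deposited tables called it lower in distal than proximal (adjusted p = 0.00138) and middle fin (adjusted p = 0.0166).

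nr3c2, the mineralocorticoid receptor gene, was at 402, 464, 467, 468 and 520.0 in distal, 313, 279, 397, 421 and 330.3 in middle and 509.8, 460.0, 417, 348 and 418 in proximal libraries. It was called 1.32-fold higher in distal than middle fin (authors' deposited table, adjusted p = 0.00503), with libraries of these positions overlapping, and was not called between the ends. The androgen receptor gene ar averaged 2243 ± 188 in distal, 2371 ± 243 in middle and 2317 ± 225 in proximal fin (SD, n = 5 each), with a limma 95% interval of -0.22 to 0.13 for the log2 difference between the ends. The glucocorticoid receptor gene nr3c1 averaged 1839.6 ± 239, 1988 ± 251 and 1888 ± 196 in distal, middle and proximal fin, with an interval of -0.25 to 0.17. Libraries pooled both sexes, so sex differences of these receptors were not analysed here.

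Enzymes, chaperones and targets of steroid signalling included 6 genes called higher and 7 lower of 22 in distal against proximal fin in the authors' deposited table, 59.1% beside 36.0%. With limma 4 were higher and 5 lower, beside 25.8% and 25.7% of the genes it kept. tsc22d3, a glucocorticoid-induced gene, averaged 9520.0 ± 1133 in distal, 4052 ± 617 in middle and 3252 ± 401 in proximal fin (SD, n = 5 each), 2.93-fold higher distally (authors' deposited table, adjusted p = 4.2e-33). pck1, a gluconeogenic enzyme gene, averaged 207 ± 72.3, 321 ± 88.4 and 641 ± 230.1 in distal, middle and proximal fin, 3.09-fold lower distally (same table, adjusted p = 0.00011). The list's median log2 was -0.37, and per1a, described with the clock, belongs to it too. Of the 4 oestrogen-related receptor genes, esrrga alone was called, with means of 4.98 ± 2.98 in distal, 5.73 ± 2.55 in middle and 12.8 ± 4.94 in proximal fin from 23, 30 and 67 reads (authors' deposited table, adjusted p = 0.017 between the ends).

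Fatty acid receptors of the PPAR group were lower in distal fin for both alpha genes and were not called for the delta and gamma genes. pparaa was at 205, 197, 172, 174 and 191 in distal, 299, 212, 180.0, 256 and 225 in middle and 352, 266, 291, 204 and 362 in proximal libraries. Proximal libraries were the higher ones, apart from 1 that lay within the distal range, and the distal level was 1.57-fold lower (authors' deposited table, log2 -0.65, adjusted p = 0.00153). pparab averaged 449.7 ± 62.6 in distal, 525 ± 89.6 in middle and 560.4 ± 67.7 in proximal fin (SD, n = 5 each), 1.25-fold lower distally (authors' deposited table, adjusted p = 0.0191). Leaving out distal library 1, distal library 4 or proximal library 1 ended the pparab call, with limma adjusted p-values of 0.0686 to 0.0784. pparg, the adipocyte regulator in mammals, averaged 56.1 ± 22.1, 67.1 ± 19.6 and 81.1 ± 10.8 in distal, middle and proximal fin, and was called by limma (adjusted p = 0.0358) and not in the authors' deposited table (adjusted p = 0.0892).

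Among 33 targets of the PPAR and liver X receptors, 4 were called higher and 11 lower in distal than proximal fin in the authors' deposited table, 45.5% beside 36.0%, with a median log2 of -0.30. With limma 4 were higher and 11 lower, beside 25.8% and 25.7% of the genes it kept. fabp3, a fatty acid carrier gene, averaged 992 ± 113 in distal, 1945 ± 139 in middle and 2038 ± 90.9 in proximal fin (SD, n = 5 each), 2.06-fold lower distally (same table, adjusted p = 2.06e-19). scd, a desaturase gene, averaged 5.52 ± 3.88, 46.1 ± 27.7 and 57.4 ± 24.3 in distal, middle and proximal fin, 10.4-fold lower distally (authors' deposited table, adjusted p = 7.83e-08). apoeb, an apolipoprotein gene, went the other way, 2.15-fold higher distally in the authors' deposited table (adjusted p = 4.43e-24). Its distal reads per library had no single solution.

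One thyroid hormone receptor gene and one vitamin D receptor gene were higher in distal fin. thraa averaged 658 ± 44.9 in distal, 548 ± 33.2 in middle and 539 ± 43.3 in proximal fin (SD, n = 5 each). Its distal libraries lay above all others, and the authors' deposited table gave a 1.22-fold higher level in distal than proximal fin (adjusted p = 0.0434). thrab and thrb, the other thyroid hormone receptor genes, had overlapping libraries and were not called. vdrb averaged 544 ± 31.4, 411 ± 57.3 and 433 ± 43.5 in distal, middle and proximal fin, 1.26-fold higher in distal than proximal (authors' deposited table, adjusted p = 0.0208) and 1.32-fold higher than in middle fin (adjusted p = 0.00407). vdra averaged 595 ± 22.7, 518 ± 46.6 and 532 ± 30.2 in the same order and was called in none of the authors' deposited tables. limma called it higher in distal than middle fin (adjusted p = 0.0263), a call lost without any of 4 single libraries (adjusted p up to 0.0739).

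Enzymes that activate and inactivate the hormones differed along the fin too. Of 9 thyroid hormone genes 3 were called higher and 3 lower in distal than proximal fin in the authors' deposited table, 66.7% beside 36.0%, and 0 of 9 between middle and proximal fin, where limma called 1 and 1 had an unadjusted DESeq p under 0.05. Between distal and proximal fin limma called 4 higher and 3 lower, beside 25.8% and 25.7% of the genes it kept. dio3b, which inactivates thyroid hormone, averaged 189 ± 13.5 in distal, 43.2 ± 10.5 in middle and 47.5 ± 15.7 in proximal fin (SD, n = 5 each; authors' deposited table, adjusted p = 7.66e-30 between the ends). dio2, which activates it, averaged 26.5 ± 10.5, 70.1 ± 18 and 63 ± 19.5 in distal, middle and proximal fin (same table, adjusted p = 0.000799), and dio1, whose enzyme can do both, averaged 39.6 ± 4.03, 74.3 ± 11 and 105 ± 13.9 (adjusted p = 8.83e-12). dio3b was thus higher and dio2 and dio1 lower in distal fin.

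Of 8 vitamin D genes tested between distal and proximal fin, 2 were called higher and 2 lower in the authors' deposited table, 50.0% beside 36.0%. With limma 2 were higher and 1 lower, beside 25.8% and 25.7% of the genes it kept. cyp2r1, whose enzyme makes the circulating form of vitamin D, averaged 254 ± 18.6 in distal, 112 ± 10.2 in middle and 70.4 ± 10.5 in proximal fin (SD, n = 5 each; same table, adjusted p = 2.49e-31). cyp24a1, a vitamin D-induced gene whose enzyme degrades the hormone, averaged 469 ± 54.9, 115 ± 45.4 and 257 ± 134 in distal, middle and proximal fin (authors' deposited table, adjusted p = 0.00346 between the ends). The epithelial calcium channel gene trpv6 averaged 3.58 ± 2.28, 13.9 ± 2.19 and 49.9 ± 15.8 in that order (adjusted p = 3.7e-14 in the same table), lowest in distal fin.

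nr5a2 (ENSDARG00000100940), the liver receptor homolog gene, was at 129, 122, 119, 122 and 129 in distal, 90.7, 86.6, 75.1, 86.4 and 80.9 in middle and 61.3, 53.3, 75.4, 48.6 and 67.4 in proximal libraries. All distal libraries exceeded all others, while 1 proximal library reached just above the lowest middle one. The authors' deposited tables gave a 2.03-fold higher level in distal than proximal fin (log2 1.02, adjusted p = 6.03e-08) and a 1.47-fold higher level in distal than middle fin (adjusted p = 0.0041). Its relative nr5a5 averaged 43.8 ± 8.62 in distal, 33.9 ± 6.07 in middle and 29.5 ± 7.5 in proximal fin (SD, n = 5 each; authors' deposited table, adjusted p = 0.047 between the ends). That call was lost without distal library 1, proximal library 3 or proximal library 4, with limma adjusted p-values of 0.0559 to 0.0583.

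The NR4A receptors, ligand-independent members encoded by genes of the immediate early response, were not called between the ends of the fin. nr4a3 averaged 441 ± 92.9 in distal, 321 ± 40.2 in middle and 404 ± 107 in proximal fin (SD, n = 5 each) and was called higher in distal than middle fin in the authors' deposited table (log2 0.45, adjusted p = 0.0317). limma did not call it (adjusted p = 0.0531). nr4a1 varied from 368 to 571 in distal, 269 to 541 in middle and 244 to 603 in proximal libraries, a spread within each position that exceeded the differences between the means.

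Whether a receptor changed by the same amount over both steps was tested as the log2 difference of distal from middle fin minus that of middle from proximal fin, with limma over all 18818 genes with enough reads. Of 56 receptors 4 passed, 7.14% beside 11.5% of all genes. The value was 0.65 ± 0.19 (SE) for rxrab (limma, adjusted p = 0.0293), which stepped up between middle and distal fin. For nr3c2 the value was 0.74 ± 0.20 (limma, adjusted p = 0.0229). The mean of nr3c2 was lowest in middle fin, with 464 in distal, 348 in middle and 431 in proximal fin. The value was -0.77 ± 0.24 for rorcb (limma, adjusted p = 0.0409) and -1.07 ± 0.32 for rorb (limma, adjusted p = 0.0351), both highest in middle fin. rorb was at 24.6, 22.4, 16.5, 21.3 and 26.5 in distal, 30.8, 31.7, 27.9, 31.1 and 28.3 in middle and 26, 21, 13.5, 15.5 and 21.5 in proximal libraries. Its middle libraries stood above all others. None of the 4 passed a fit without middle library 1 or without middle library 5. For raraa and rxraa the values, 0.45 ± 0.24 and 0.42 ± 0.17, did not pass (limma, adjusted p = 0.268 and 0.117), although the larger of their 2 fitted differences was that between middle and proximal fin.

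The authors' table of monotonic genes, selected for steady change along the fin, held 3 receptors, raraa, rarab and nr1i2, that is 4.76% of the receptors and 4.78% of all gene IDs. Of the 37 receptors called in no comparison, 29 reached a mean of at least 20 in some position, and the largest of their log2 differences between distal and proximal fin in the authors' deposited table was 0.79 in size. limma called 4 of the 37 between distal and proximal fin, namely nr1h3, nr2c2, pparg and nr2f5, and vdra between distal and middle fin, besides rorcb, which the authors called elsewhere. It also called rorb higher in middle than proximal fin (limma, adjusted p = 0.0302), a call lost without any of 5 single libraries. The receptors at the lowest levels included nr5a1a, with means of 0.68 ± 0.995 in distal, 0.926 ± 0.917 in middle and 1.74 ± 1.88 in proximal fin, nr2e1, with 4.96 ± 1.32, 2.47 ± 0.593 and 2.1 ± 1.58, and nr0b1, with 3.99 ± 3.5, 5.14 ± 2.32 and 4.57 ± 2.19 in the same order (SD, n = 5 each). At these depths 3 reads in a position correspond to a mean of 0.648 in distal, 0.566 in middle and 0.575 in proximal fin. None of these 3 genes was called in the authors' deposited tables, and all were under limma's filter on low counts.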

How the data were processed

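Per the labels' protocols, total RNA was extracted with TRIzol, depleted of ribosomal RNA and sequenced as 50-base pairs. The authors used TopHat2 2.0.13, HTSeq and DESeq with GRCz10, per the submitters' processing notes. How strand and reads shared by paralogs were handled is not given in the sources used here, and so values of close duplicates and of genes with antisense partners are uncertain.

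The authors deposited, per the file headers, 1 signal value per position (a mean of normalized read counts), a ratio, its log2, a p-value and an adjusted p-value in each of 3 pairwise tables, and a score per gene in 1 table of 1144 monotonic genes. The columns there headed rpm are not in that unit, since 1 value reaches 2613306. The authors' deposited p-values come from DESeq, with Benjamini-Hochberg adjustment within a table.

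A deposited mean is the mean of 5 whole counts, each divided by a size factor. Starting size factors followed from the spacing of low means and were refined on solved counts. Counts were solved from the 15 digits of the means in 2 tables. The size factors behind the levels shown were then fitted to the means of alternate genes in the monotonic table. A single solution was found for 23630 of 23672 distal, 23802 of 23848 middle and 23792 of 23827 proximal genes. Means of the other genes in the monotonic table, used neither in that fit nor to solve counts, were matched for 565 of 565, 568 of 568 and 569 of 569 genes. In a simulation on genes already solved, with means made from the same size factors used to solve them, no solved gene was wrong. That simulation could not show errors that come from the size factors themselves. Libraries of a position differed by more than counting noise, with a mean chi-square per gene of 6.24 to 17.1 between 2 libraries. Recovered libraries carry no replicate label.

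Calls and fold changes are the authors'. limma 3.58.1 (voom, R 4.3.3) on the recovered counts of 18818 genes that reached 10 reads in 5 or more libraries, a test of log values and not of deposited counts, was the second test, tested on simulated data. The comparison of duplicate shares, with Python and scipy 1.17.1, was added after the data were seen. Alternatives were a stricter threshold, a minimum mean, library totals of recovered counts as scale, no filter, 2 positions only and leaving out each library. Floors cover counting error only.

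The receptors, the gene lists and tests were chosen with earlier results of these data known. Named were all retinoic acid and retinoid X receptors, every other receptor called and with a mean of at least 20, and per list the 3 called genes with the largest fold between distal and proximal fin among those with a mean of at least 20, which leaves out genes such as rbp2a and srd5a2b, listed at 0 in distal fin. In the retinoic acid list, the genes named beyond aldh1a2, bco1 and stra6 were added after their values were seen. Other receptors named were chosen after their values were seen. Protein and promoter sequences were not used here.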

Additional observations from a re-analysis of the deposited data

Results flagged for a closer look

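The 52 receptors with a mean of at least 20 in some position were each screened at each position for a library standing apart from the other 4 by Dixon's criterion, in 156 groups of 5 libraries. Chance marks about 1 in 20 such groups, and 8 were marked. Distal library 4 had 29.2 normalized counts of rxrgb, while the other distal libraries had 16.5 to 19.8. Proximal library 4 had 531 for rorcb, while the other proximal libraries had 813 to 891. Without it limma's log2 difference of rorcb between distal and proximal fin was -0.50 (adjusted p = 0.0013), against -0.36 (adjusted p = 0.0364) with all libraries. limma's call of rorcb was lost without any of 6 other libraries (adjusted p 0.0013 to 0.106 over the 10 fits). Middle library 1 had 2959 for rarga, while the other middle libraries had 3174 to 3216. Distal library 5 had 555 for pparab, while the other distal libraries had 401 to 445. Distal library 3 had 918 for nr1h3, while the other distal libraries had 762 to 785, and limma's call of nr1h3 between distal and proximal fin held with each library left out (adjusted p 0.0115 to 0.0371). Distal library 1 had 94.5 for pparg, while the other distal libraries had 39.5 to 54.4, and limma's call of pparg was lost without any of 6 other libraries (adjusted p 0.00335 to 0.104 over the 10 fits). Middle library 4 had 517 for roraa, while the other middle libraries had 337 to 384. Middle library 1 had 480.2 for ppardb, while the other middle libraries had 409 to 426.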

How the results depend on the processing

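No paired analysis was possible because the recovered libraries carry no replicate number from the labels. The number of receptors lower in distal than proximal fin was 10 by the authors' test, 11 by limma and 16 by limma with library totals as scale, where 14 were higher. Library totals here are sums over the 23442 genes with recovered counts in all libraries. They leave out genes without a single solution, and scaling by full depth was not tested. Of all genes limma called 4853 higher and 4834 lower, and 4184 and 5666 with library totals as scale. That scale moved the median of all genes by -0.07 between distal and proximal fin. Between distal and middle fin limma called 13 receptors higher and 5 lower (72.2% of the calls higher), and 11 and 7 with library totals (61.1%). Over all genes 52.7% of limma's calls there were higher, and 45.6% with library totals. Receptors higher in middle than proximal fin numbered 0 by the authors' test (5 at an unadjusted p under 0.05, 3 by limma, 2 with library totals, 2 without a filter, 1 with 2 positions only, 1 to 3 with a library left out). Those lower numbered 3, against 5 by limma, with library totals, without a filter and with 2 positions only, and 2 to 6 with a library left out. Of all genes limma called 1293 higher and 1303 lower in middle than proximal fin, and 1110 and 1515 with library totals. Receptors whose 2 steps differed numbered 4, and 0 to 5 with a library left out, falling to 2 without distal library 3 or middle library 2, and 1 without middle library 3. Duplicate pairs whose share differed were 3 between middle and proximal fin (1 to 3 with a library left out, 1 without proximal library 3) and 2 between distal and middle fin (1 to 3, 1 without distal library 1 or 4). With a library left out, limma called 13 to 15 receptors higher and 8 to 11 lower between distal and proximal fin, and 11 to 14 and 5 to 6 between distal and middle fin. No named receptor reversed a called direction under any alternative run. Besides the calls described as lost, thraa, vdrb and esrrga between distal and proximal fin passed 0.05 but not 0.01. So did pgr between distal and middle fin. Of the 13 calls that limma made and the authors did not, those of nr2c2 and nr1h3 between distal and proximal, nr5a2 between middle and proximal and thraa between distal and middle fin held with each library left out, and the other 9 were each lost without some library.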

Other observations

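The clock receptors often shared their lowest library within a position, a pattern chosen after the values were seen. Of nr1d1, nr1d2a, nr1d2b, rorab, rorca and rorcb, 5 of 6 had their lowest proximal value in proximal library 4 and 5 of 6 their lowest middle value in middle library 2, rorab being the exception in both. In distal fin, library 2 was lowest for nr1d1, nr1d2b and rorca. Without proximal library 4, limma's log2 difference between distal and proximal fin was 1.17 ± 0.15 (SE) for nr1d1, 0.91 ± 0.11 for rorca and 0.54 ± 0.08 for nr1d2b, all with an adjusted p under 0.05. Over the 52 receptors with a mean of at least 20, proximal library 4 was lowest of its position for 17 and highest for 12.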
